A study of Mus musculus with 12 samples.

Results

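Lung cells sorted for Siglec-F from mice whose liver had not been operated on, labelled as alveolar macrophages, form the baseline of this experiment. They are 3 of the 12 arrays of the series, chosen by their titles, which name them intact. The mice were male C57 Black, no transgene or other allele is given for any group, and in every group the cells were pulled from lung on magnetic beads coated with anti-Siglec-F. The other 9 arrays come from mice examined 1, 3 and 7 days after 70% of the liver had been resected, with 3 arrays at each time. Titles call the arrays biological replicates, but nothing says whether an array holds 1 mouse or several, so the p-values below measure the spread between these RNA samples. RNA was hybridised to Clariom S mouse arrays, which carry mostly 1 probe set for each gene, and each value is the log2 signal of a probe set. Age and housing are not given, and no mock-operated group is among the samples.

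Alveolar macrophages live on the air side of the lung, where they clear surfactant, particles and microbes. Their identity depends on the cytokine GM-CSF, received through Csf2ra and Csf2rb, on TGF-beta, and on the lipid-sensing nuclear receptor Pparg. Siglec-F, the sialic acid-binding lectin used for the sort, is carried in mouse by alveolar macrophages and also by eosinophils. A bead sort reads 1 surface protein and gives no count of the cell types it collects.

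A level was judged against intron controls, 5222 probe sets on the same array that match intron sequence, which mature RNA lacks. A probe set is called seen when its signal lies above the 95th percentile of these controls on each of the 3 intact arrays. That limit was 5.24, 5.06 and 5.22 on intact replicates 1, 2 and 3, and the median intron control lay at 2.43, 2.39 and 2.42. Of 22206 gene probe sets, 5137 were seen (23.1%), against 211 of the 5222 intron controls themselves (4.04%) and 715 of 1324 exon controls (54.0%). Another 503 gene probe sets were seen on 2 intact arrays, 519 on 1 and 16047 on none (72.3%). Counted once per gene, 4625 of 19505 genes were seen (23.7%). A stricter limit, the 99th percentile at 8.13, 7.97 and 8.04, was passed by 893 gene probe sets (4.02%) and 48 intron controls (0.919%). Fth1, the ferritin heavy chain that stores iron, gave 12.56, 12.69 and 12.57 and was the 1 gene probe set above the brightest intron control of every intact array.

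The limit is a line for calling a signal seen and not a threshold of expression. Around it the values run on without a gap: 556 seen probe sets had a lowest margin under 0.25, and 605 probe sets seen on no intact array had a highest margin above -0.25. Just inside lay Nup160, Acad9 and Gps2, with lowest margins of 0.0004, 0.0010 and 0.0010, and just outside lay Tm9sf4, Yaf2 and Tcim, with lowest margins of -0.0003, -0.0007 and -0.0020. The label of male mice gave a check of what a missing call means. Eif2s3y, a translation factor gene on the Y chromosome, was seen at 6.50, 6.72 and 6.82. Kdm5d, a Y-linked histone demethylase that male cells also use, gave 3.17, 3.68 and 3.21, and Uty, another Y-linked gene of that kind, gave 4.84, 4.65 and 5.13, so both stayed under the limit. A gene not seen is therefore not shown to be silent.

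Gene families known mainly from other organs served as a second check of the limit. None of 1080 olfactory receptors, 319 vomeronasal receptors, 38 taste receptors, 39 beta-defensins or 33 Hox genes was seen on all 3 intact arrays, but 4 of 50 keratin-associated proteins of hair (Krtap17-1, Krtap3-2, Krtap3-3 and Krtap5-1) and 2 of 19 crystallins (Cryab and Crybg1) were. By contrast 58 of 63 cytosolic ribosomal protein genes, 33 of 38 proteasome subunits, 35 of 49 replication-dependent histones (near-identical copies that probes may not tell apart), 23 of 35 subunits of respiratory complex I and 13 of 21 subunits of the vacuolar ATPase were seen. Marker genes of hepatocytes (14), germ cells (12), striated muscle (12), neurons (11), pancreas (10) and epidermis (10) were seen on all 3 intact arrays in no case. Alb, serum albumin, gave 2.23, 2.47 and 2.13, close to the median intron control of each array.

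Markers of alveolar macrophages were nearly all seen, 20 of 21 measured, and 16 of them lay above the stricter limit as well. Siglecf, the gene of the sorting antigen, gave 8.69, 8.94 and 8.75 on intact replicates 1, 2 and 3, against 7.89, 8.58 and 8.89 as the lowest, median and highest of the resected arrays. The intact values lay within that range, apart from replicate 2 just above it. Pparg, the nuclear receptor that drives the alveolar macrophage programme, gave 8.93, 8.84 and 8.71 on intact arrays, against 8.54, 8.85 and 9.27 on resected arrays. Mrc1, the mannose receptor CD206, gave 10.16, 10.10 and 10.05 on intact arrays, against 10.06, 10.20 and 10.82 on resected arrays. These last 2 genes varied little among the intact arrays, with SDs of 0.11 and 0.05 (n = 3), and both overlapped the resected arrays.

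Car4, a membrane-bound carbonic anhydrase, gave 10.34, 10.43 and 9.49, with replicate 3 the lowest. Itgax, the CD11c integrin chain, gave 9.35, 8.98 and 8.49. Marco, a scavenger receptor for unopsonised particles, gave 7.23, 7.89 and 7.25, below the stricter limit on every intact array. All 3 overlapped the resected arrays, which ran over 7.85 to 10.38 for Car4, 7.20 to 9.33 for Itgax and 6.63 to 8.38 for Marco. Among further markers, Chil3, the chitinase-like protein Ym1, gave 11.92, 11.28 and 11.63, and Lpl, lipoprotein lipase, gave 10.03, 9.81 and 9.85. Fabp1, a fatty acid-binding protein, was the exception, at 4.66, 5.90 and 6.23, seen on replicates 2 and 3 alone. Ear1 and Ear2, eosinophil-associated ribonucleases that alveolar macrophages also express, were not analysed here.

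**Figure D1:**
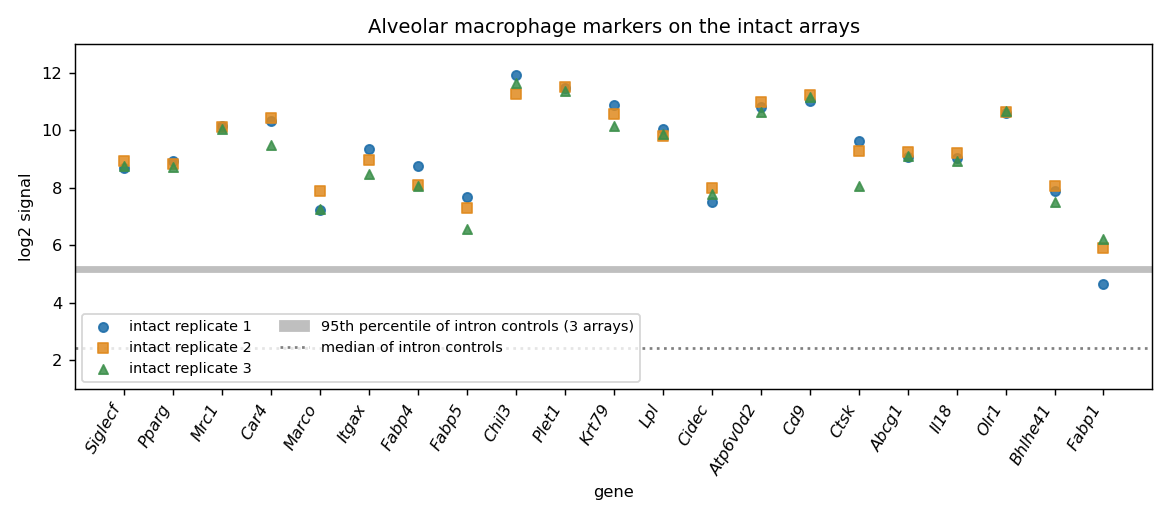
Log2 signal (vertical axis) of the 21 measured alveolar macrophage markers (horizontal axis) on the 3 intact arrays, 1 point per array, with the 95th percentile (grey band) and the median (dotted) of the intron controls. All 3 points lie above the band for 20 of 21 genes, with the widest gaps among these for Ctsk (9.63, 9.27, 8.08) and Fabp5 (7.68, 7.30, 6.56), and Fabp1 has replicate 1 below it at 4.66.

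Promoters of the marker genes were compared in letters with those of other genes. Reference promoters, 250 bases before to 50 after a start, were matched by symbol for 15691 of the 19505 genes (RefSeq, GRCm38.p6, 19143 promoters). Over all of them the share whose gene was seen grew with the number of CG pairs in the 300 bases, at 10.9% with 0 to 4 pairs, 18.9% with 5 to 9, 27.8% with 10 to 19 and 38.1% with 20 or more. The median promoter of a seen gene held 21 such pairs and that of a gene seen on no intact array 10, against 14 over all. Alveolar macrophage markers had a median of 5 over 19 promoters of 16 genes, and other cell type lists were low as well, with 7 for endothelium and 8 for type 2 alveolar cells. The heptamer GAGGAAG, a purine-rich core that the macrophage factor PU.1 is known to bind, lay on either strand of 5 of these 19 promoters (26.3%), against 13.2% of all promoters. Lysosome genes (28.6%) and endothelial markers (25.0%) had like shares. TATAAA, the TATA box core, lay on either strand of 6 of the 19 (31.6%), against 12.3% of all and 27.3% for type 2 alveolar cell markers. None of these traits is particular to the macrophage markers. These are matches of letters in a fixed window, and no binding was measured.

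The promoters of Siglecf and Marco are shown as 2 of the CG-poor ones, with GAGGAAG, or its reverse complement CTTCCTC, in capitals. Dusp1, an early response gene described further on, is shown as a CG-rich one, with TGACGTCA, the full cyclic AMP response element, in capitals. All run 5′ to 3′ on the strand of the gene. The Siglecf window is chr7:43351091-43351390 on the plus strand and holds 2 CG pairs. The Marco window is chr1:120504975-120505274 on the minus strand and holds 0. The Dusp1 window is chr17:26508423-26508722 on the minus strand and holds 31. TGACGTCA lay in 3.13% of promoters of seen genes and 2.31% of all promoters.
Siglecf: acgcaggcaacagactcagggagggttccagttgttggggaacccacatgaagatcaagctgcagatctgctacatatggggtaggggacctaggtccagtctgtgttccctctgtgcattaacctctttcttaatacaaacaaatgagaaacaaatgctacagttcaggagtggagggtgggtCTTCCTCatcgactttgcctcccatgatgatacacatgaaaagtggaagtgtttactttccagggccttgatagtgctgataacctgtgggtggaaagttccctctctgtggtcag
Marco: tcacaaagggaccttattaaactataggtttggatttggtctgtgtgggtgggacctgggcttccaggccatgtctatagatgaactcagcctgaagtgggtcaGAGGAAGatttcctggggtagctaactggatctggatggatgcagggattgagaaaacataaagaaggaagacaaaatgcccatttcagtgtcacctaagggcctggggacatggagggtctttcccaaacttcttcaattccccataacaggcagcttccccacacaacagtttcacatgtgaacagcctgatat
Dusp1: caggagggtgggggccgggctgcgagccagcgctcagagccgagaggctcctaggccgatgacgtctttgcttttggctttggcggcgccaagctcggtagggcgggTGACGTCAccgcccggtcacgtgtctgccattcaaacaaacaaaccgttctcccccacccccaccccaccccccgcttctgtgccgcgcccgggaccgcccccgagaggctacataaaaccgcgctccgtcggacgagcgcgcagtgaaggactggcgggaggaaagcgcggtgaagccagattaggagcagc

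Genes that set up and maintain alveolar macrophages were seen in 16 of 18 cases. Csf2ra and Csf2rb, the GM-CSF receptor chains, gave 8.90, 8.79, 8.78 and 8.45, 8.17, 7.85. Spi1, which encodes PU.1, gave 11.66, 11.64 and 11.57. The TGF-beta receptor genes Tgfbr1 and Tgfbr2 gave 8.54, 8.37, 8.26 and 8.17, 8.26, 8.22, and Csf1r, the receptor of M-CSF, gave 9.02, 8.64 and 8.72. Bach2, a repressor that keeps these cells quiet in mouse, was the member seen on no intact array, at 3.83, 3.85 and 3.95. Nr1h3, the oxysterol receptor LXR alpha, varied most among the intact arrays, at 6.39, 6.01 and 5.37. Irf8, an interferon regulatory factor of myeloid cells, gave 5.71, 5.03 and 5.34 and was seen on replicates 1 and 3.

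Lipid and lysosome genes, the machinery by which these cells digest surfactant, were seen almost completely. All 16 lipid-handling genes were seen, among them the cholesterol exporters Abca1 (7.82, 7.91, 7.52) and Abcg1 (9.06, 9.24, 9.12) and the fatty acid receptor Cd36 (9.07, 9.40, 9.46). Of 19 lysosome genes 18 were seen, including the cathepsin Ctsb at 10.99, 10.97 and 10.93. Tfeb, a transcription factor of lysosome genes, was the exception at 5.02, 5.41 and 5.05, seen on replicate 2 alone. Scavenger and phagocytic receptors split by gene, with 9 of 19 seen: Marco, Msr1, Cd36, Mrc1, Scarb2, Olr1, Mertk, Axl and Lrp1. Receptors typical of other resident macrophages, Timd4 of peritoneal and Kupffer cells and Cd163 of tissue macrophages that take up haemoglobin, were seen on none of the 3, at 3.13, 2.94, 3.67 and 2.55, 2.71, 3.59.

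Sensing and antibody receptors were seen in part. The Fc gamma receptor genes Fcgr1, Fcgr2b, Fcgr3 and Fcgr4 were all seen, with Fcgr3 at 10.04, 10.22 and 10.15, and 6 of 13 Fc receptor genes were seen in all. Of 18 Toll-like receptor and adaptor genes 8 were seen: Tlr2, Tlr4, Tlr7, Tlr8, Tlr13, Cd14, Ly96 and Myd88. Tlr2, the receptor of bacterial lipoproteins, gave 10.94, 11.15 and 10.91. Tlr3, Tlr9 and Tlr11 were seen on no intact array, and Tlr5, the flagellin receptor, was seen on replicates 2 and 3. Among 9 Siglec family genes Siglecf, Siglec1, Cd33 and Cd22 were seen. Seen among further receptors were 6 of 22 chemokine receptors (27.3%, near the 23.1% of all gene probe sets). The counts were 14 of 33 for interleukin and colony-stimulating factor receptors (42.4%) and 11 of 24 for integrins (45.8%). Cd22 is best known from B cells, and it gave 7.44, 7.24 and 6.62 while none of the 7 B cell markers was seen.

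Cytokine and chemokine messages known from activated macrophages were seen on the intact arrays. Whether the cells were activated in the animal or during sorting was not tested. Tnf, tumour necrosis factor, gave 11.02, 10.92 and 10.71, and Il1a and Il1b, the interleukin-1 genes, gave 11.38, 11.39, 11.30 and 10.81, 10.29, 9.96. Il6, a cytokine that primes liver regrowth among many other roles, gave 10.25, 9.20 and 9.50. On the resected arrays Il6 ran over 5.20 to 9.43 with a median of 7.81, and the groups overlapped on intact replicate 2. The difference for Il6, intact minus resected, was 1.81 ± 0.64 (SE) and did not pass the test (adjusted p = 0.640, limma). Il10, an anti-inflammatory cytokine, was seen on no intact array, at 3.93, 4.05 and 4.21, and neither was Il12a, at 2.61, 2.53 and 2.51. In all, 10 of 27 cytokine genes were seen (37.0%, against 23.1% of all gene probe sets). The T cell cytokines Ifng, Il4, Il5, Il13 and Il17a were seen on none of the 3 intact arrays.

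Chemokines that draw neutrophils and monocytes were among those seen. Ccl3, which draws monocytes, gave 11.49, 11.84 and 11.83, and Cxcl2, which draws neutrophils, gave 11.67, 11.74 and 11.73. Cxcl1 and Cxcl3, further neutrophil chemokines, gave 9.65, 9.42, 8.98 and 9.44, 8.86, 8.76. Seen were 8 of 18 CC and 7 of 17 CXC chemokine genes. Cxcl5, an epithelial neutrophil chemokine in mouse lung, was not, at 2.35, 2.21 and 1.91. Of the classic activation pair, neither Nos2 (2.93, 2.79, 2.54) nor Arg1 (2.48, 2.82, 2.69) was seen on any intact array, while Retnla, a gene of alternative activation, was seen at 6.14, 6.13 and 6.63. The list of classical and alternative activation had 9 of 15 seen.

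Immediate early genes, which cells switch on within minutes of a stimulus and which taking tissue apart is known to induce as well, were seen in 21 of 22 cases, with 12 above the stricter limit. Fos, Jun and Egr1, transcription factors of this response, gave 9.50, 9.69, 9.81, then 8.25, 8.85, 9.03, then 10.04, 10.22, 10.38. Dusp1, the phosphatase that switches MAP kinases off, gave 11.69, 11.85 and 11.92. Dusp2, a related phosphatase, was seen on replicate 3 alone, at 4.73, 4.52 and 5.23. The mean level of the 22 genes was 8.38, 8.46 and 8.57 on the intact arrays and 7.48 to 8.29 on the resected arrays, which all lay below it. The means of several other lists separated in the same way, those of B cell and NK cell markers among them. Of the 22, 21 had a positive difference, with a median of 0.41 (0.10 over probe sets seen on at least 3 of 12 arrays), and none passed the test over all probe sets. Unadjusted p-values under 0.05 were found for 9 of them, against 5.52% of all probe sets. In a fit of the 5990 probe sets seen on at least 3 of 12 arrays, 420 had such a p-value. Like the other lists, this one was chosen with earlier results of these data known, so such counts are descriptions.

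Of 14 genes of NF-kB subunits and their inhibitors 12 were seen, with Nfkbia, which holds NF-kB in the cytoplasm, at 10.46, 10.55 and 10.63. Among heat shock chaperones 8 of 10 were seen, with Hspa1a at 5.28, 5.46 and 6.02.

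Of 32 cell cycle genes 2 were seen on all 3 intact arrays (6.25%, against 23.1% of all probe sets), a count that rests on replicate 3, where 2 were seen, against 9 each on replicates 1 and 2. When 2 of 3 arrays sufficed, 9 were seen, with 25.4% over all probe sets, and at the 90th percentile 10, with 32.6%. Mki67, a nuclear protein of dividing cells, gave 7.46, 7.25 and 6.47, and Pcna, the replication clamp, gave 9.61, 9.75 and 9.51. Top2a and Cdk1, needed for mitosis, were seen on no intact array, at 4.51, 4.20, 4.16 and 3.14, 3.10, 2.86. Another 7 genes were seen on 1 or 2 intact arrays.

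Most chains and chaperones of MHC class II presentation were seen, and their activator was not. H2-Aa and H2-Ab1, the class II chains, gave 10.72, 9.62, 10.28 and 10.04, 9.09, 9.29. Ciita, the activator that class II genes require, gave 3.62, 3.39 and 4.04, below the limit on every array, and 8 of 13 genes of the list were seen. H2-Ab1 ran over 5.20 to 8.78 on the resected arrays, all below the intact arrays, with a difference of 1.72 ± 0.52 (SE, adjusted p = 0.446, limma). Replicate 1 was the highest intact array for H2-Aa, H2-Ab1, H2-Eb1, H2-DMa, H2-DMb1 and H2-DMb2. Interferon-response genes were seen in 12 of 24 cases, among them Ifit3 (5.70, 6.35, 6.55) and, barely above the limit, Irf7 (5.28, 5.08, 5.22). Isg15, Mx1 and Ifit2 were seen on none of the 3 intact arrays.

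Beside the macrophage genes, markers of several other lung and blood cells were seen. The sorted RNA is a bulk sample, in which fewer cells of a type and less RNA per cell cannot be told apart. The share of a list seen was 8 of 10 for monocytes, 5 of 7 for club cells, 12 of 17 for neutrophils, 9 of 13 for type 2 alveolar cells, 11 of 16 for endothelium and 7 of 11 for type 1 alveolar cells. Above the stricter limit lay 3 of these monocyte markers, 1 of the club cell, 6 of the neutrophil, 1 of the type 2 alveolar cell and 0 of the endothelial and type 1 alveolar cell markers. None was seen of 7 B cell, 9 T cell, 9 NK cell, 7 platelet, 4 erythroid, 5 lymphatic endothelial, 12 smooth muscle and pericyte, or 11 goblet, basal, neuroendocrine and tuft cell markers. Of the platelet markers 0, 2 and 4 were above the limit on replicates 1, 2 and 3. The erythroid list had 8 entries, of which 4 were measured. Several listed myeloid genes, such as Csf3r, Trem1, Fn1 and Apoe, are also used by macrophages. Smaller shares, below the 23.1% of all gene probe sets, were seen of the lists of mast cells and basophils (2 of 10), dendritic cells (2 of 11) and plasmacytoid dendritic cells (1 of 6). The same held for group 2 innate lymphoid cells (1 of 5), ciliated cells (2 of 9) and mesothelium (1 of 5, Krt19, which the pan-epithelial list also holds). What part these other cells had in the macrophage results was not tested.

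**Figure D2:**
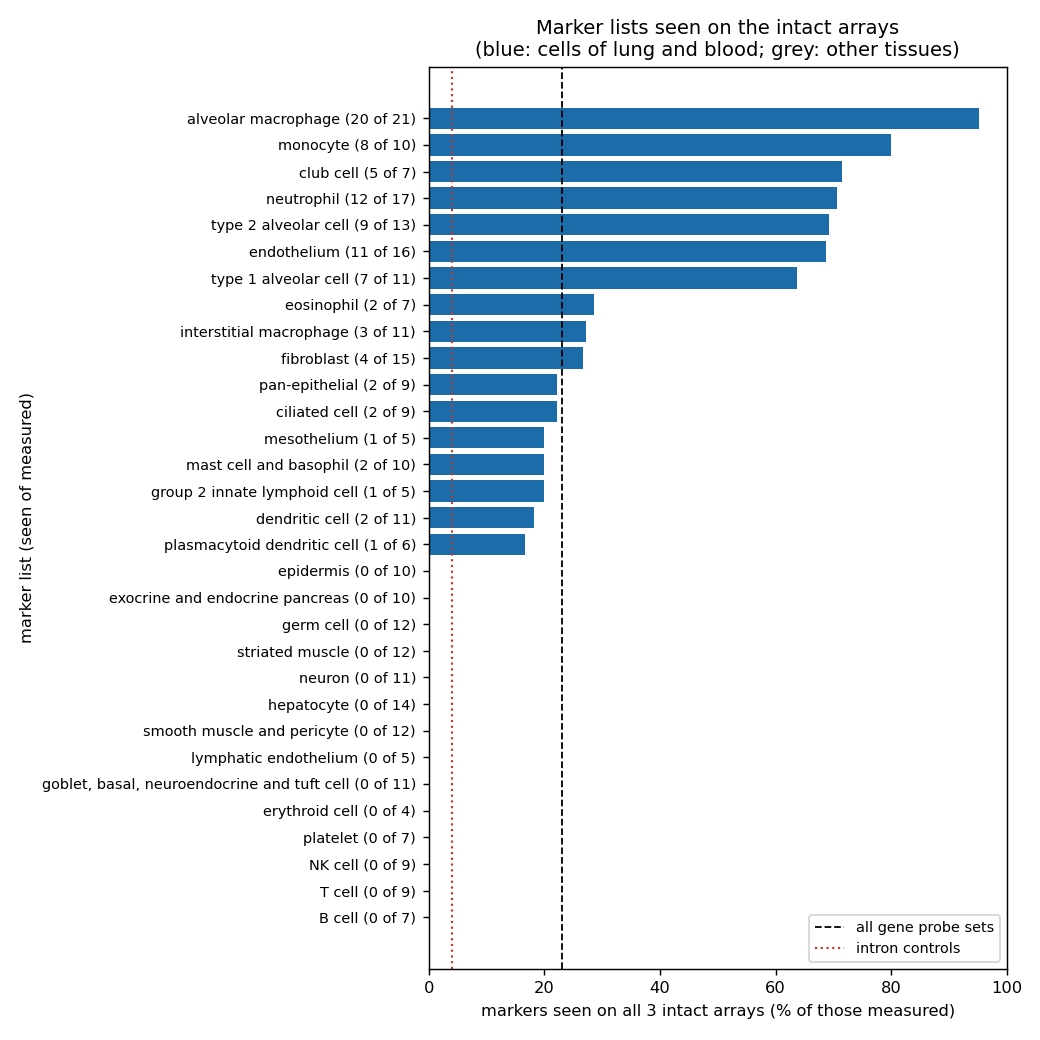
Share of the measured markers of each list seen on all 3 intact arrays (horizontal axis, %), 1 bar per list, with the share over all gene probe sets (dashed, 23.1%) and over intron controls (dotted, 4.04%). Alveolar macrophage markers lead with 20 of 21, and the monocyte, club cell, neutrophil, type 2, endothelial and type 1 lists lie well past the dashed line. Ciliated cell and pan-epithelial lists lie just under it. Lymphatic endothelium, B, T and NK cells and tissues outside the lung are among those at 0.

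Eosinophils share the sorting antigen. Their receptors Ccr3, for eotaxin, and Il5ra, for interleukin-5, were seen on no intact array, at 3.60, 3.01, 3.48 and 2.47, 2.51, 2.62. Ccr3 ran over 2.50 to 7.16 on the resected arrays and was seen on 3 of those 9. The granule protein genes behaved otherwise, with Prg2, major basic protein, at 6.53, 7.21 and 8.82 and Epx, eosinophil peroxidase, at 3.78, 4.67 and 6.28. Both had replicate 3 as the highest intact array. Of the 7 eosinophil markers Prg2 and Ear6 were seen on all 3 intact arrays (28.6%, near the 23.1% of all gene probe sets).

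Neutrophil markers were seen in 12 of 17 cases. S100a8 and S100a9, the calprotectin genes, gave 9.13, 8.12, 8.38 and 8.59, 8.35, 8.38, and Cxcr2, the neutrophil chemokine receptor, gave 6.29, 5.71 and 6.21. Of granule proteins made in the bone marrow, Ngp was seen at 8.89, 8.13 and 9.25, while the enzymes Elane and Mpo were seen on no intact array, at 3.57, 3.59, 3.89 and 2.81, 3.17, 3.53. The mean level of the 17 markers was 7.02, 6.69 and 6.93 on intact arrays and 7.02 to 8.21 on resected arrays, with 8 of the 9 resected arrays above every intact one. Of the 17, 13 had a negative difference (median -1.07) and 10 an unadjusted p under 0.05, against 5.52% of all probe sets, and 1 passed the test, Mrgpra2b. The list was chosen with earlier results of these data known, so these counts describe it and are no independent support.

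Monocyte markers had 9 of 10 differences positive (median 0.96) and 7 unadjusted p-values under 0.05, against 5.52% of all probe sets, and none passed the test. Since this list too was chosen with earlier results known, its counts are a description. Ly6c2, the Ly6C antigen of inflammatory monocytes, gave 8.63, 9.20 and 9.74 on intact arrays, against 6.28, 7.41 and 8.09 as the lowest, median and highest resected arrays, with no overlap. Its difference was 1.93 ± 0.36 (SE) and did not pass the test (adjusted p = 0.0995, limma). Ccr2, the receptor by which monocytes leave the marrow, gave 4.76, 4.93 and 6.12 and was seen on replicate 3 alone. Treml4 and Ace, used by patrolling monocytes, gave 7.57, 7.43, 7.39 and 7.50, 8.23, 8.13. Interstitial macrophage markers were seen in 3 of 11 cases (27.3%, near the 23.1% of all gene probe sets). The 3 were C1qa at 5.42, 5.45 and 6.04, Lyve1 at 5.58, 6.81 and 7.32, and Apoe at 8.50, 8.78 and 9.13. Cx3cr1, their chemokine receptor, was seen on no intact array, at 3.14, 2.69 and 2.99.

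Epithelial genes of the lung surface were among those seen. Sftpc, surfactant protein C of type 2 cells, gave 10.81, 11.33 and 11.20 on intact arrays, against 6.28, 9.36 and 10.31 as the lowest, median and highest resected arrays. Scgb1a1, the secretoglobin of club cells, gave 10.05, 10.61 and 11.37 on intact arrays, against 8.32, 9.15 and 9.87 on resected arrays. Neither gene overlapped between the groups, which holds for 1.44% of all probe sets, and neither passed the test, with differences of 1.92 ± 0.61 and 1.54 ± 0.29 (SE; adjusted p = 0.507 and 0.104, limma). Other epithelial markers were not seen: Epcam, a pan-epithelial adhesion molecule, gave 4.53, 3.54 and 3.20, Krt18 gave 2.52, 3.28 and 3.20, and Nkx2-1, the transcription factor of lung epithelium, gave 2.39, 2.40 and 2.35. Cdh1, E-cadherin, and Krt19, a keratin of simple epithelium, were seen, at 6.99, 7.11, 7.29 and 6.92, 7.83, 7.44. They were the 2 seen of 9 pan-epithelial markers (22.2%, near the 23.1% of all gene probe sets).

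Endothelial markers were seen in 11 of 16 cases. Cdh5, VE-cadherin, gave 7.83, 8.39 and 8.47, and Pecam1, CD31, gave 6.73, 7.88 and 7.57. Kdr, the VEGF receptor of blood vessels, gave 6.74, 7.53 and 7.50, with replicate 1 the lowest for all 3 genes. Of 15 fibroblast markers 4 were seen (26.7%, near the 23.1% of all gene probe sets), Dcn, Npnt, Mfap4 and Inmt, while the collagens Col1a1 and Col1a2 were not, at 4.98, 4.95, 4.96 and 4.08, 4.77, 5.09. Lymphocyte receptors were mostly under the limit. On replicates 1 and 3, 2 of the 9 T cell markers were above it, Icos, described further on, and Il7r, the interleukin-7 receptor, at 6.14, 5.01 and 5.32. Cd3e, of the T cell receptor complex, gave 3.46, 3.24 and 4.16, Ms4a1, the B cell antigen CD20, gave 2.82, 2.58 and 2.69, and Ncr1, of NK cells, gave 2.22, 2.30 and 1.96. The granzyme gene Gzma gave 5.04, 5.88 and 6.52 and was seen on replicates 2 and 3.

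The intact arrays had the smallest spread of the 4 groups. Over the 5137 seen probe sets the median SD was 0.15 on intact arrays, against 0.40, 0.31 and 0.30 at days 1, 3 and 7 (n = 3 each). Since these probe sets were chosen on the intact arrays, the SD over all 22206 is the fairer value, and it was 0.16, against 0.29, 0.21 and 0.25. Pearson's r across all gene probe sets was 0.988 between replicates 1 and 2, 0.986 between 1 and 3, and 0.990 between 2 and 3. A gap of more than 1 on the log2 scale separated 57, 92 and 27 of the seen probe sets in these pairs. Genes within an array are not independent, so these are descriptions.

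A small group of genes nevertheless differed widely among the intact arrays. Of the seen probe sets 130 (2.53%) had a range above 1, with replicate 3 the highest for 67, replicate 1 for 44 and replicate 2 for 19. Mcpt8, a protease of basophils, gave 3.65, 4.02 and 7.08, and Prss34, another basophil protease, gave 2.85, 3.24 and 5.89. Replicate 3 alone had both above the limit, and the resected arrays lay at 2.13 to 3.45 and 2.41 to 3.08. Other genes with replicate 3 the highest were Prg2, Epx and Alox15, the lipoxygenase of eosinophils and some macrophages, along with Scgb3a2, Prg4 and Inmt. Scgb3a2, a club cell secretoglobin, gave 4.21, 4.94 and 6.36, and Inmt, a methyltransferase of lung fibroblasts, gave 5.83, 7.17 and 8.08.

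Replicate 1 was the highest for another set. Cxcl9, an interferon gamma-induced chemokine, gave 9.03, 6.14 and 6.96, and Cfb, complement factor B, gave 8.37, 6.24 and 5.95. Inhba, which encodes activin A, gave 8.74, 7.13 and 6.06, and Awat1, a wax synthase, gave 5.41, 3.13 and 2.84. Each of these 4 genes spans more on the intact arrays than 2 units, and each overlapped the resected arrays. The 12 genes of widest range are a description, since an array has no repeat.

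**Figure D3:**
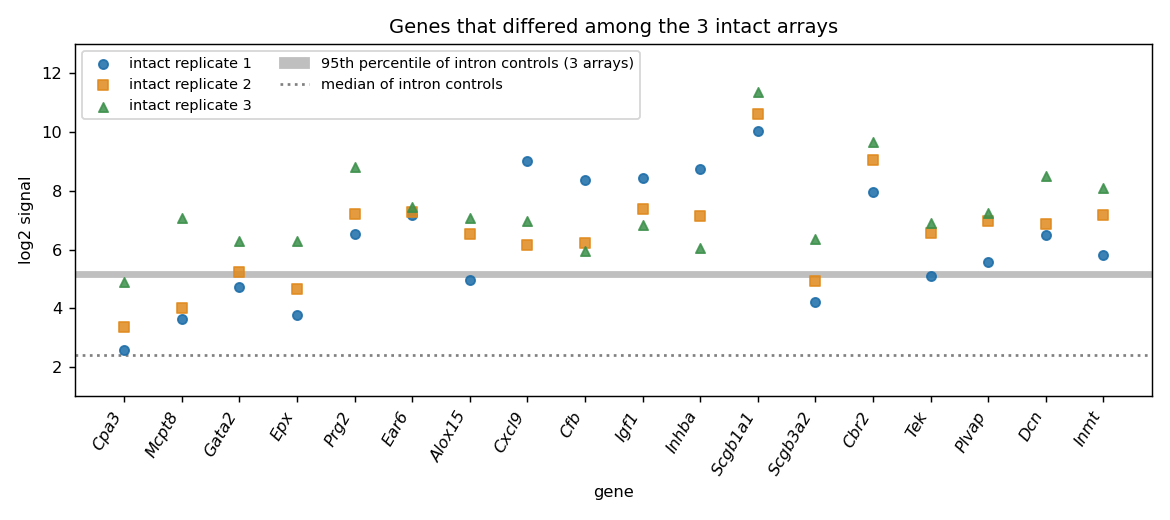
Log2 signal (vertical axis) of 18 genes that differed among the intact arrays or belong to the same lists (horizontal axis), 1 point per array, with the 95th percentile (grey band) and median (dotted) of the intron controls. Replicate 3 is the highest for Mcpt8, Epx, Prg2, Scgb3a2 and Inmt, and replicate 1 for Cxcl9, Cfb, Igf1 and Inhba.

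Lists showed the same division of the arrays. The club cell list stood furthest apart, with its 7 markers at a median deviation from the intact mean of -0.92 on replicate 1, -0.04 on replicate 2 and 0.78 on replicate 3. Monocyte markers deviated by -0.46, -0.09 and 0.51, endothelial markers by -0.56, 0.22 and 0.33, fibroblast markers by -0.38, 0.05 and 0.27, and platelet markers by -0.27, -0.06 and 0.37. Replicate 1 was the lowest in each of these 5 lists and replicate 3 the highest. MHC class II genes ran differently, at 0.36, -0.27 and -0.03, and cell cycle genes at 0.20, 0.07 and -0.24. Alveolar macrophage markers deviated by 0.06, 0.10 and -0.12, and the genes that regulate these cells by -0.0058, -0.0020 and 0.0106.

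**Figure D4:**
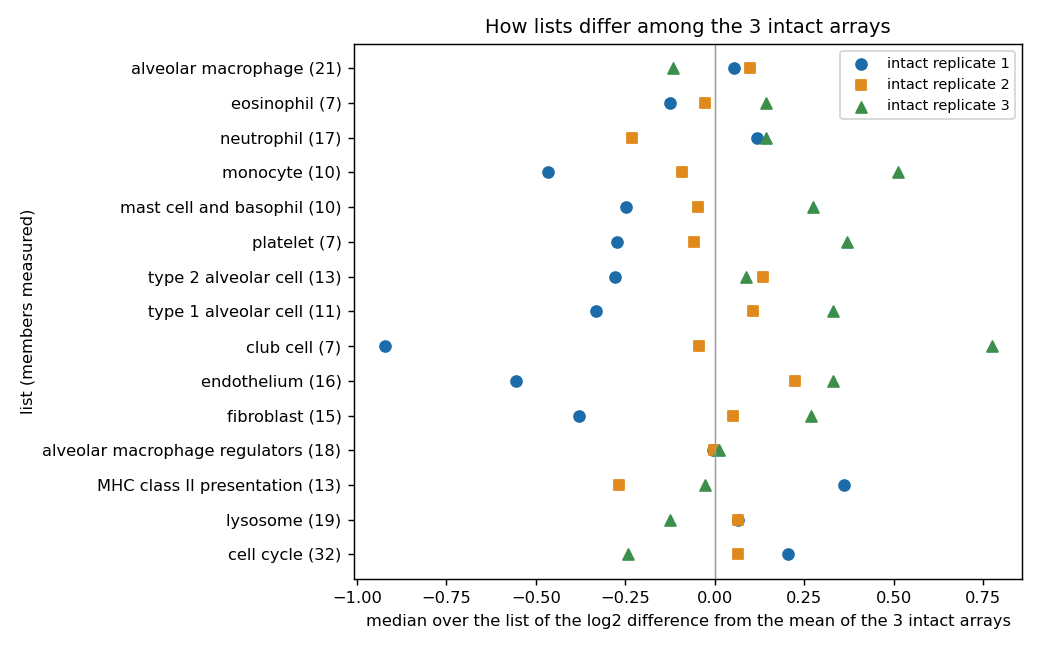
Median over each list's members of the log2 difference from the mean of the 3 intact arrays (horizontal axis), 1 point per array and list (rows, with the number of members measured). Replicate 1 lies to the left and replicate 3 to the right for club cell, endothelial, monocyte and fibroblast markers, whereas all 3 arrays coincide near 0 for the alveolar macrophage regulators.

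Set against the resected arrays, the intact arrays had much the same genes in view. Intact arrays had 5459, 5916 and 5561 seen probe sets each, a mean of 5645.3 ± 239.9 (SD, n = 3), against 5001.1 ± 718.3 on resected arrays (SD, n = 9). The difference of 644.2 was within the spread (two-sided exact permutation test, p = 0.164, over 220 groupings, smallest p 0.0045). Of the 5137 seen probe sets 3185 (62.0%) were also seen on all 9 resected arrays and 4813 (93.7%) on 5 or more, while 14.4% of all gene probe sets were seen on all 9. No probe set was seen on all 9 resected arrays and on none of the intact ones. Conversely 13 were seen on all 3 intact arrays and on no resected one. Of the 13, those with a name were Adh1, Ccl5, Tagap, Ephx1, Muc1, Itga6, Pkp4, Lats2 and Fam71a.

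Most of these lay close to the limit. Ccl5, a T cell and monocyte chemokine, gave 5.53, 5.34 and 5.64 on intact arrays, against 3.10, 4.12 and 4.53 as the lowest, median and highest resected arrays. Muc1, a mucin of type 2 cells, gave 5.30, 5.08 and 5.76 on intact arrays, against 3.65, 4.25 and 5.34 on resected arrays, and overlapped them. Of the 9 named genes Adh1 passed the test of the difference.

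The array controls moved with the groups and bear on this comparison. The area under the curve that separates exon from intron controls was 0.878, 0.888 and 0.879 on intact arrays and 0.809 to 0.880 on resected arrays. The 3 lowest values belonged to day 1 replicate 2, day 3 replicate 1 and day 7 replicate 2. The hybridisation control bioB lay at 7.53 to 7.72 on intact arrays and 7.44 to 10.29 on resected arrays. The labelling control dap lay at 2.13 to 2.40 on intact arrays, and on day 3 replicate 1 and day 7 replicates 2 and 3 it lay at 6.88, 7.77 and 6.47. Calls between the groups are given below without the weak arrays.

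In a limma fit of all 12 arrays, 10 of 22206 probe sets differed between the intact arrays and the mean of the 3 resected groups after Benjamini-Hochberg adjustment. Of these, 9 were higher in intact mice (0.0405%) and 1 was lower (0.0045%). At an unadjusted p under 0.05 there were 1225 (5.52%), 942 with a positive and 283 with a negative difference, where 1110.3 are due by chance. Over all probe sets the median difference was -0.0003, and over those seen on at least 3 of the 12 arrays it was 0.10. The count depended on single arrays. Leaving out intact replicate 2 or 3 left 0 calls (765 and 668 at an unadjusted p under 0.05). Leaving out replicates 1, 2 or 3 of day 1 gave 6, 44 and 17 calls in that order, and for day 3 the counts were 69, 6 and 5. Omitting day 7 replicate 2 or 3 gave 6 and 5. Without the 3 arrays of weakest control separation it was 395 (323 higher and 72 lower in intact mice), with all 10 among them. Adh1, Col3a1, Dpt, Mxra8 and Sftpd lost their call to the omission of intact replicate 2 or 3 and to no other single array, while Tppp3, Icos, Ephb4, Mrgpra2b and Rtl8b also lost it to others. Array weights, which count the weak arrays less, gave 575 calls.

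The 9 genes that were higher in intact mice included 2 of the fibroblast list and 1 each of the type 2 alveolar, ciliated and T cell lists. Adh1, an alcohol dehydrogenase that also acts on retinol, gave 5.25, 5.76 and 6.48 on intact arrays, against 3.01 to 4.71 on resected arrays. Its difference of 2.25 ± 0.28 (SE, adjusted p = 0.0152, limma) was the largest of the 9. Col3a1, a fibrillar collagen of fibroblasts, gave 4.34, 5.23 and 5.19 on intact arrays, against 2.26 to 3.45 on resected arrays, a difference of 2.08 ± 0.21 (adjusted p = 0.0061). Both genes separated every intact array from every resected one, but Col3a1 was seen on intact replicate 2 alone.

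Dpt, a dermatopontin of connective tissue, gave 5.17, 5.72 and 6.13 on intact arrays, against 3.01 to 4.33 on resected arrays (adjusted p = 0.0085). Tppp3, a tubulin-binding protein of ciliated cells, gave 7.03, 7.47 and 6.71 on intact arrays, against 4.44 to 6.37 on resected arrays (adjusted p = 0.0454). Sftpd, the surfactant lectin SP-D, gave 4.24, 4.38 and 4.94 on intact arrays, against 2.49 to 3.67 on resected arrays (adjusted p = 0.0085). It lay below the intron limit on every array of the series. Adh1 and Tppp3 were the 2 genes of this direction that were seen on all 3 intact arrays.

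Icos, a co-stimulatory receptor of T cells, gave 5.40, 4.54 and 5.36 on intact arrays, against 2.99 to 4.32 on resected arrays. Mxra8, Ephb4 and Rtl8b completed the list, with differences of 1.77 ± 0.21, 1.38 ± 0.20 and 1.07 ± 0.16 (SE). Mxra8, an adhesion protein of mesenchymal cells, and Ephb4, a receptor of venous endothelium, lay below the intron limit on every array of the series. Their differences, and that of Sftpd, are between signals that the intron controls do not set apart from background.

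Mrgpra2b, a receptor gene that mouse neutrophils express, was the gene that was lower in intact mice. It gave 6.95, 6.28 and 5.82 on intact arrays, against 7.81, 8.82 and 9.57 as the lowest, median and highest resected arrays, and the groups did not overlap. Its difference was -2.27 ± 0.34 (SE, adjusted p = 0.0454, limma). The next smallest p-values in this direction did not pass in the default fit of all arrays. They belonged to Slc40a1, the iron exporter ferroportin, to Mmp9, Gca, Cxcr2, Stfa2 and Lcn2 of neutrophils, and to Fkbp5, a target of glucocorticoids. The adjusted p of these genes ran over 0.0710 to 0.122 in that fit (limma). More probe sets were called lower in other runs, 72 without the 3 arrays of weakest control separation (323 higher) and 91 with array weights (484 higher). Which of these genes gained a call in those runs is not given here. Slc40a1 gave 4.18, 3.77 and 4.03 on intact arrays, against 5.04 to 6.66 on resected arrays.

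**Figure D5:**
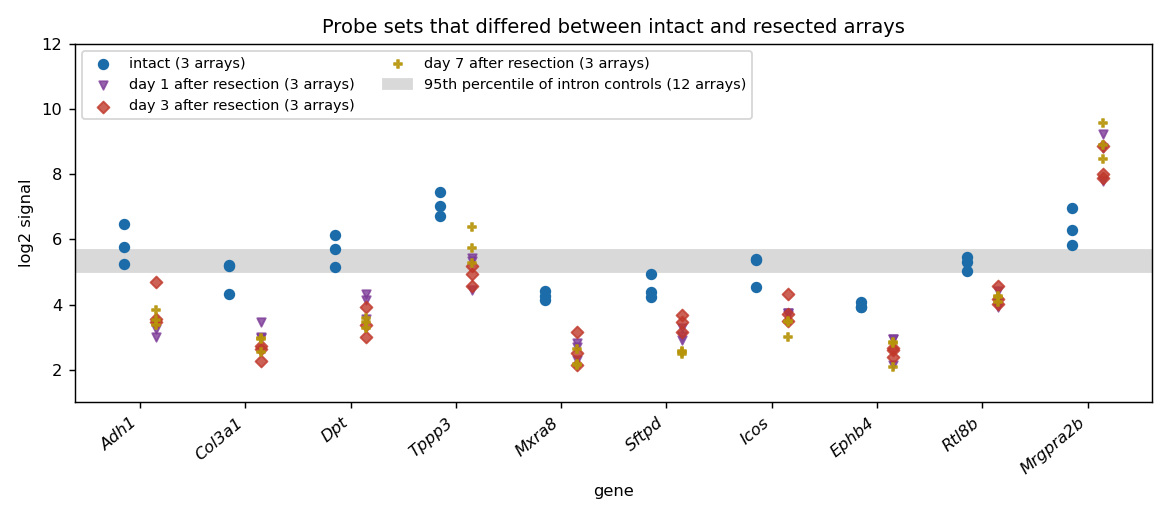
Log2 signal (vertical axis) of the 10 probe sets that passed the test (horizontal axis), with the 3 intact arrays as circles left of the 9 resected arrays and the range of the intron limit over the 12 arrays in grey. The groups separate for all 10 genes, with intact arrays above for 9 and below for Mrgpra2b, and Mxra8, Ephb4 and Sftpd lie under the grey band in both groups.

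Read by list, alveolar macrophage markers had a median difference below that of probe sets seen on at least 3 of 12 arrays (0.10), and markers of club cells, endothelium, fibroblasts and type 2 cells had mostly positive differences. Of the 21 alveolar macrophage markers none passed the test, 1 had an unadjusted p under 0.05, and the median difference was 0.01, with a range of -0.18 to 0.68. Their mean level was 9.32, 9.35 and 9.07 on intact arrays and 8.62 to 9.41 on resected arrays. All 7 club cell markers had a positive difference (median 1.53), all 7 an unadjusted p under 0.05 and none passed. Endothelium had 16 of 16 positive (median 1.37), 13 with an unadjusted p under 0.05 (5.52% of all probe sets) and none that passed. Fibroblast markers had 13 of 15 positive (median 1.04) and 2 that passed, Col3a1 and Dpt. Type 2 alveolar cell markers had 12 of 13 positive (median 1.09) and 1 that passed, Sftpd, which lay below the intron limit on every array. Other lists ran as much to 1 side. Positive were 7 of 7 platelet, 5 of 5 lymphatic endothelial, 10 of 10 heat shock and 11 of 12 smooth muscle and pericyte genes. Their medians were 0.34, 0.22, 0.42 and 0.24. Monocyte (9 of 10), type 1 alveolar cell (10 of 11) and MHC class II genes (12 of 13) had larger medians, 0.96, 0.54 and 0.54. Interferon-response genes had 18 of 24 positive, at a median of 0.49. Neutrophil markers ran the other way, with 13 of 17 negative and a median of -1.07. All lists were chosen with earlier results of these data known, so the counts are descriptions and no independent support.

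The levels of these lists on each array show the size of the gap. Club cell markers averaged 6.76, 7.48 and 8.23 on intact arrays and 5.36 to 6.71 on resected arrays, all 9 of which lay below. Fibroblast markers averaged 4.53, 4.98 and 5.25 on intact arrays and 3.19 to 4.44 on resected arrays, likewise all below. Endothelial markers averaged 5.94, 6.70 and 6.84 on intact arrays and 4.20 to 6.38 on resected arrays, with 8 of 9 below. Hepatocyte markers, none of them seen, averaged 2.41, 2.42 and 2.39 on intact arrays and 2.38 to 2.65 on resected arrays. Other lists with no marker seen on all 3 intact arrays did show a gap: B cell markers averaged 3.00 to 3.22 on intact arrays and 2.73 to 2.96 on resected arrays, all below, and NK cell, smooth muscle and pericyte, and lymphatic endothelial markers also had all 9 resected arrays below. The type 2 alveolar, ciliated and plasmacytoid dendritic cell lists had all 9 below as well. So did the immediate early, heat shock and interferon-response lists, so such a gap is not particular to club cells or fibroblasts. What part the array controls given above had in these list levels was not tested.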

How the data were processed

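RNA of cells sorted for Siglec-F was measured on 12 Clariom S mouse arrays in 4 groups of 3. Values were used as deposited, in log2 signal for each probe set, which the authors computed by RMA (Transcriptome Analysis Console, per the submitters' processing notes). No version and no genome build are given in the sources used here, and that the logarithm has base 2 was read from the values. RMA normalizes quantiles over arrays, which removes differences in total signal. The platform annotation gave 19572 of the 22206 gene probe sets 1 symbol and 2634 none.

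The 28846 probe sets hold 5222 intron and 1324 exon controls, left out of the tests. Each gene probe set was set against the intron controls of its own array. The difference between intact and resected arrays was fitted in limma 3.58.1 (R 4.3.3) as intact minus the mean of days 1, 3 and 7, with 4 group means, default eBayes and Benjamini-Hochberg adjustment over 22206 probe sets at 0.05. The fit was also run on simulated data, with noise of the same spread on every array. The real arrays were unequal in spread, so that run cannot judge the calls given here. Lists (56, with 860 entries, of which 791 were measured) use the probe set of highest intact mean. The members and lists were chosen with earlier results of these data known. Named were the first genes of each list and members whose call differed from their list, the 12 widest ranges among intact arrays, up to 8 differences each way and genes seen in intact mice alone. Further examples were chosen after their values were seen. The number of arrays, 3 a group, limits the precision. Deviations of same-numbered arrays correlated at -0.18 to 0.09 between intact and resected arrays and at -0.24 to 0.26 among resected arrays, so numbers do not pair samples.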

Additional observations from a re-analysis of the deposited data

How the results depend on the processing

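The number of probe sets seen was 5137 at the 95th percentile of intron controls, 7232 at the 90th, 893 at the 99th and 1 above the highest control. It was 5640 when 2 of 3 arrays sufficed, 5628 by the mean, 5181 to 5415 with 1 intact array left out, and 4625 with 1 probe set per gene. A limit at the highest antigenomic background probe set, chosen after seeing the data, gave 5308, of which 5121 were shared. Of the counts of list members seen under these alternatives, 108 moved by over 1.5 times and 396 did not. The difference in seen probe sets per array had p = 0.145 at the 90th and 0.745 at the 99th percentile (exact permutation tests).

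Against the 10 calls between intact and resected arrays (9 higher, 1 lower in intact mice), limma gave 30 with a trend, 10 with robust moderation, 1 with only probe sets seen on at least 3 of 12 arrays or on all 3 intact arrays (a filter that selects for high intact values, with a median difference of 0.11), 8 after quantile normalization (6 higher, 2 lower), 5 after median centring (5 higher, 0 lower), 575 with array weights (484 higher, 91 lower), 27 with 2 groups, 36 at a threshold of 0.1, and 395 without the 3 weakest arrays. With 1 array left out it was 0 to 69. With the replicate number as a block it was 10 (10 higher, 0 lower), of which 6 were shared. The cause of these shifts was not tested. The 8 differences named each way, by call or by smallest p, kept their sign in every alternative run that held them. Other differences given above, such as those of Rtl8b, Il6, H2-Ab1, Ly6c2, Sftpc and Scgb1a1, were not checked in this way. The signal over the intron controls limits which genes are called seen, and a gene not seen is not shown to be silent.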

Other observations

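Factors that act on the liver were among the genes seen in intact mice, 10 of 28 measured growth factors of liver regeneration (23.1% of all gene probe sets were seen). Hgf, hepatocyte growth factor, lay close to the limit at 5.34, 5.31 and 5.35, with 2.99 to 5.85 on resected arrays. Osm, oncostatin M, gave 8.99, 8.90 and 8.50, Tgfb1 gave 9.37, 9.30 and 9.30, and Ereg, epiregulin, gave 7.36, 7.36 and 6.47. Igf1, insulin-like growth factor 1, gave 8.43, 7.38 and 6.84, with replicate 1 the highest. Tgfa, Egf, Btc and Hbegf, ligands of the EGF receptor, were seen on no intact array. None of the 28 passed the test against resected arrays.

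Iron and heme genes were seen in 10 of 18 cases, with Hmox1, heme oxygenase 1, at 10.49, 10.62 and 10.33. Tfrc, the transferrin receptor, was seen on no intact array, at 2.38, 3.29 and 2.69. Complement genes were seen in 7 of 21 cases (33.3%, against 23.1% of all gene probe sets). Cfp, properdin, gave 8.20, 8.17 and 8.08, and C5ar1, the C5a receptor, gave 7.74, 7.70 and 7.57. Vsig4, the complement receptor of Kupffer cells, was seen on no intact array, at 2.13, 2.22 and 2.35. Inhibitory and co-stimulatory ligands and receptors, taken as 1 list, were seen in 13 of 19 cases. Among them were Cd274, the inhibitory ligand PD-L1, at 9.65, 8.86 and 9.16 and Sirpa, which binds CD47, at 11.39, 11.42 and 11.29. The co-stimulatory ligands Cd80 and Icosl were seen too, at 9.32, 9.24, 8.91 and 8.61, 8.74, 8.77.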
